A study of Arabidopsis thaliana with 15 samples.

Results

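Of the 16310 H2AK121ub peaks called in wild-type Arabidopsis seedlings, 2934 (18.0%) crossed a border of H3K27me3. They were selected on position alone: a peak counted when it shared at least 1 bp with an H3K27me3 peak and was not held whole by a single one. A further 2614 peaks (16.0%) were nested in an H3K27me3 peak and 10762 (66.0%) were free of the mark. The peaks come from whole seedlings of Col-0 with the wild-type genotype, taken 10 days after germination (DAG) from MS agar in long days, with 2 ChIP-seq libraries for each mark. The series also holds libraries of emf1, ring1ab and lhp1 seedlings and a wild-type input, which were not analysed here. Each mark has a single list of consensus peaks, for which the authors intersected the peaks of the wild-type replicates, so that a listed end can be the end of the shorter call. Whether the lists also draw on younger wild-type seedlings, which the methods of the study combine with these, is not settled by the files. Only positions are listed, with no signal beside them. The study states an approximate number of reads per sample, but the depth behind a listed peak is unknown. Replicates cannot be compared, and the intervals below cover counting error over peaks only. Neighbouring peaks are not independent, which those intervals do not cover either.

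Polycomb proteins keep developmental genes silent. Polycomb repressive complex 1 (PRC1) adds ubiquitin to histone H2A, which gives H2AK121ub in plants, and PRC2 adds methyl groups to histone H3, which gives H3K27me3. H3K27me3 often forms broad domains over whole genes in plants, whereas H2AK121ub is found both with it and alone, commonly near gene starts. A border below is the end of an H3K27me3 peak, and a crossed border is one that lies inside an H2AK121ub peak. Reach is the length of H2AK121ub from the border outwards to the end of its own peak.

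DNA at or near 5 of these borders is shown to place the marks on sequence. The RefSeq copy of TAIR10 (TAIR10.1) was read 5′ to 3′ on the strand of the gene, with capitals for bases under H2AK121ub alone and lower case for bases that also lie under H3K27me3 or under neither mark. For 3 genes whose start lies at a crossed border, the 120 bases before the annotated transcription start site (TSS) are given, which leaves out any untranslated region. MAF4 (chr5:25992073-25992192, plus strand) and MAF5 (chr5:25997384-25997503, plus strand) are neighbouring relatives of FLC that repress flowering. ATHB-15 (chr1:19414765-19414884, minus strand) is a class III homeodomain leucine zipper gene of vascular and meristem development.
MAF4: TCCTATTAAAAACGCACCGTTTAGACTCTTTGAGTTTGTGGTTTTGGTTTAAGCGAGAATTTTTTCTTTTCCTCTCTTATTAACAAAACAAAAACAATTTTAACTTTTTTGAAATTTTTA
MAF5: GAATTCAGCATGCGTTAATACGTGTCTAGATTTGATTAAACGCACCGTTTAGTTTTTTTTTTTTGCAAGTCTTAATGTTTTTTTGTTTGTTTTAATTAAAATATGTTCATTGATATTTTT
ATHB-15: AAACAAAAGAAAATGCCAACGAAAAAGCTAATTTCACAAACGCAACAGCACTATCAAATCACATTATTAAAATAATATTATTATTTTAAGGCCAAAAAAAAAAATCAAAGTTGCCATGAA
The H3K27me3 peak began 62 bp past the TSS in MAF4, 25 bp past it in MAF5 and 45 bp past it in ATHB-15. H2AK121ub ran on beyond that border for 380, 426 and 3832 bp in turn, so all 120 bases of their promoters printed here lay under H2AK121ub alone.

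In the remaining pair of sequences the border itself is in the middle, with 60 bases on each side. PLT5, an AP2-type transcription factor of the PLETHORA family (border at chr5:23260342-23260461, minus strand), lies wholly under both marks and its border falls in intergenic DNA. YUC3, a flavin monooxygenase of auxin synthesis (chr1:1278947-1279066, plus strand), is the opposite case, since the border lies 345 bp before its TSS and the gene lies outside H3K27me3.
PLT5: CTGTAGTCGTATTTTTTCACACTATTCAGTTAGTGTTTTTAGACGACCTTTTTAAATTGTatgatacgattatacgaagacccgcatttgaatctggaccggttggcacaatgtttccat
YUC3: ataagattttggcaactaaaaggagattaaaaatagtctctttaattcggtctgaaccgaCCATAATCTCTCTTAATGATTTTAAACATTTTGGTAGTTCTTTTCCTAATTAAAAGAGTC
The H2AK121ub peak on PLT5 was 8791 bp long, of which 8132 bp lay under H3K27me3 and 659 bp beyond it. On YUC3 the H2AK121ub peak had only 437 bp under H3K27me3 and reached 1790 bp out of it, over the TSS and into the gene. The GC content of these 5 stretches was 36.7% in PLT5 and lower in the others, with 29.2% in YUC3, 26.7% in MAF4, 25.8% in ATHB-15 and the least in MAF5.

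Most crossing peaks met a single border. A single end of an H3K27me3 peak was crossed by 2036 of the 2934 peaks (69.4%, 95% Wilson interval 67.7 to 71.0%). Another 769 peaks (26.2%, 24.7 to 27.8%) enveloped 1 whole H3K27me3 peak and so crossed both of its ends, and 129 (4.40%, 3.71 to 5.20%) bridged at least 2 H3K27me3 peaks. The share of H2AK121ub peaks that crossed a border was alike on the 5 chromosomes, between 17.2% (chromosome 5, 16.1 to 18.5%) and 18.4% (chromosome 3, 17.1 to 19.8%), with overlapping intervals.

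Crossing peaks were long, which is in part a consequence of the rule, because a longer peak meets a border more readily. Their median length was 2279 bp, against 1124 bp for nested and 735 bp for free peaks. Median length was 2046 bp where a single border was crossed, 2607 bp for enveloping and 4672 bp for bridging peaks. Together the crossing peaks covered 8264182 bp, of which 3373760 bp (40.8%) lay outside H3K27me3. Within a peak the share outside varied widely, with a median of 34.7% and quartiles of 14.2 and 58.4%, and 983 peaks (33.5%) had more than 50% of their length outside.

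Seen from the H3K27me3 list, 3948 of its 8734 peak ends (45.2%) were crossed, 2021 on the left and 1927 on the right. Neither end was crossed in 1541 H3K27me3 peaks (35.3%), 1 end in 1704 (39.0%) and both ends in 1122 (25.7%). The H3K27me3 peaks with both ends crossed were the short ones, with a median of 1417 bp, against 3025 bp with 1 and 4313 bp with no crossed end. This order is in part fixed in advance, because a single H2AK121ub peak can cross both ends only of a shorter H3K27me3 peak. In 879 of those 1122 a single H2AK121ub peak ran across the whole H3K27me3 peak, and in 243 each end had an H2AK121ub peak of its own.

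The rule has a threshold of 1 bp, and the peaks on either side of it differ little. Among the members, 56 had at most 10 bp outside H3K27me3 and 3 had at most 10 bp under it. Just outside the rule, 51 nested peaks ended within 10 bp of an H3K27me3 end, 7 of them on its last base, and 2 free peaks stopped within 10 bp of one. With at least 100 bp required on both sides, 2457 of the 2934 peaks remained members.

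The position of the crossed borders relative to genes, which the rule did not use, was examined next. Each border was assigned once, to a gene start when the TSS of a protein coding gene was within 250 bp and at least as near as any gene end, then to a gene end within 250 bp, then to a gene body, to the 750 bp upstream of a gene, to another annotated gene or to intergenic DNA. Gene bodies held the most crossed borders, 1270 of 3948 (32.2%, 30.7 to 33.6%), whereas 15.0% (14.0 to 16.0%) of the 4786 uncrossed H3K27me3 ends lay there. Both shares were below that of positions taken every 100 bp along the genome (42.4%). Gene starts held 952 crossed borders (24.1%, 22.8 to 25.5%), beside 16.3% (15.2 to 17.3%) of uncrossed ends and 10.2% of genome positions. Intergenic DNA showed the reverse order, with 15.0% (13.9 to 16.1%) of crossed borders and 32.3% (31.0 to 33.6%) of uncrossed ends, beside 22.6% of genome positions. The upstream window held 10.0% and 15.4%, both above the 6.14% of genome positions. Other annotated genes held 2.46% of crossed borders and 3.32% of uncrossed ends, beside 9.37% of genome positions.

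**Figure D1:**
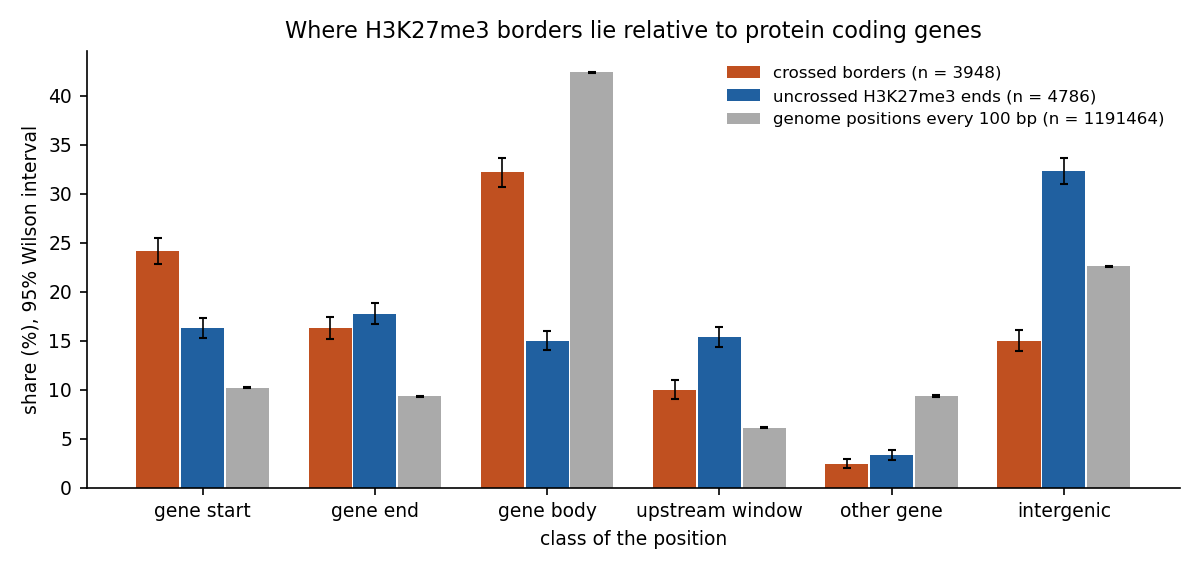
Share of crossed H3K27me3 borders, uncrossed H3K27me3 ends and evenly spaced genome positions (y axis, percent, with 95% Wilson intervals) in each class of position (x axis). Crossed borders stand above uncrossed ends at gene starts (24.1 against 16.3%) and in gene bodies (32.2 against 15.0%) and below them in intergenic DNA (15.0 against 32.3%).

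At gene ends the shares were close, with 642 crossed borders (16.3%, 15.1 to 17.4%) beside 17.8% of uncrossed ends (16.7 to 18.9%), and the intervals overlapped. Both were above the 9.36% of genome positions at a gene end. Base by base, 31.5% of crossed borders fell in coding sequence and 9.35% in 5′ untranslated regions, beside 12.7% and 3.41% of uncrossed ends. These parts made up 28.3% and 4.91% of the nuclear genome. In coding sequence the crossed share was thus near the genome value, and the uncrossed share was below it. Introns held 7.42% and 6.12%, beside 15.2% of the genome. Uncrossed ends of H3K27me3 peaks that hold H2AK121ub elsewhere were at gene starts in 16.7% and in gene bodies in 14.7%, so the comparison did not turn on the H3K27me3 peaks without any H2AK121ub. Ends of H2AK121ub peaks lie in genes whether or not H3K27me3 is near: of the ends of free peaks, 26.0% were at a gene start and 47.6% in a gene body. How far this alone sets the classes of the crossed borders was not tested.

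Genes at the crossed borders had a preferred direction. A gene is called inward here when it is transcribed from the border into H3K27me3, and outward when it is transcribed away from it. Of the 952 crossed borders at a gene start, 729 (76.6%, 73.8 to 79.2%) had an inward gene, beside 69.5% (66.2 to 72.7%) of the uncrossed ends at a gene start and 49.9% of genome positions near a TSS, where the side was set arbitrarily. Of the 642 at a gene end, 544 (84.7%, 81.7 to 87.3%) had an outward gene, so that the end of a gene under H3K27me3 lay at the border, beside 70.1% (67.0 to 73.1%) of uncrossed ends. When only borders with a reach of at least 100 bp were taken, the inward share at gene starts was 71.8% (68.3 to 75.0%), and its interval then overlapped that of the uncrossed ends. Of the 1270 crossed borders in a gene body, 10 in genes on both strands were set aside, and in 830 of the other 1260 (65.9%) the side free of H3K27me3 was the one towards the gene end, close to the 64.2% at uncrossed ends.

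For inward genes, the H3K27me3 border tended to lie on different sides of the TSS in the 2 sets. At crossed borders with an inward gene, the TSS was outside H3K27me3 in 480 of 729 (65.8%), and in 311 of them it was inside the H2AK121ub that ran out. Taken over all 729, those inside H3K27me3 included, the median position of the TSS was 56 bp outside the border. At uncrossed ends with an inward gene the TSS was outside in 194 of 541 (35.9%), and the median over all 541 placed it 41 bp within H3K27me3. This difference can in part follow from the selection, because a crossed border lies inside an H2AK121ub peak by definition. Where such peaks end at a gene start, the gene mostly runs into the peak (93.0% in free and 94.6% in nested peaks). How far this sets the side of the TSS was not tested. For outward genes the side was the same, with the TSS outside H3K27me3 at 78.0% of crossed borders and 81.4% of uncrossed ends. Over all outward TSSs the median positions were 124 and 133 bp outside. Around crossed borders the density of inward TSSs was highest in the first 100 bp outside, at 57.2 per 1000 borders. Around uncrossed ends that bin held 24.0, and the highest density, 37.0, was in the first 100 bp inside, where crossed borders had 38.8. Outward TSSs were densest farther out in both sets, at 44.6 per 1000 borders between 300 and 400 bp outside crossed borders. Around uncrossed ends their highest density was 29.9, between 200 and 300 bp outside. Ends of outward genes were densest between 100 and 200 bp outside crossed borders, at 46.1 per 1000 borders.

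**Figure D2:**
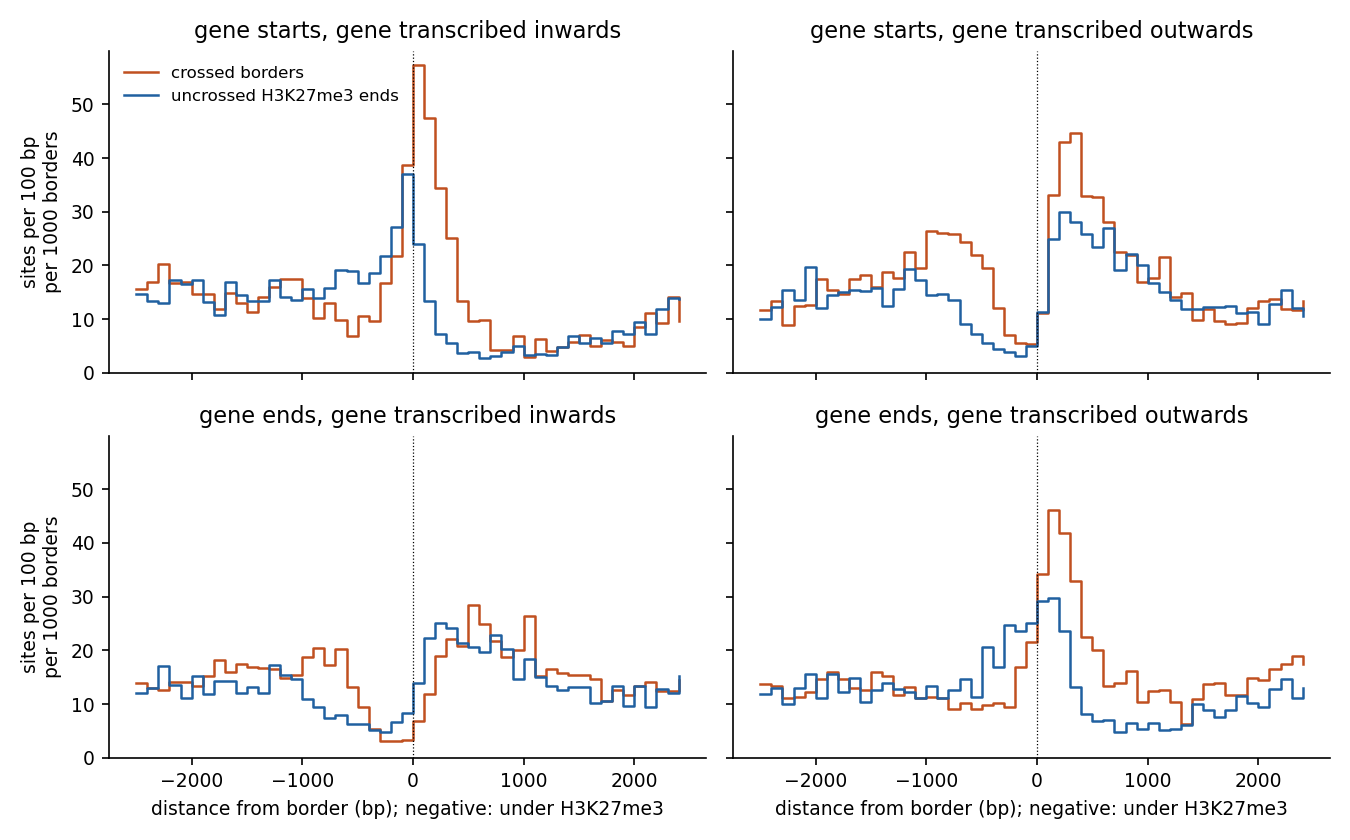
Gene starts (top) and gene ends (bottom) of inward (left) and outward (right) protein coding genes per 100 bp and per 1000 borders (y axis) by distance from the border in bp (x axis, negative under H3K27me3), for crossed borders and uncrossed H3K27me3 ends. Inward TSSs are densest in the first 100 bp outside crossed borders (57.2) and in the first 100 bp inside uncrossed ends (37.0).

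H2AK121ub reached a median of 526 bp beyond a crossed border, over the 3678 borders from which it ran to the end of its own peak. The quartiles were 132 and 1137 bp and the longest reach was 9866 bp. Short overhangs were the commonest: the reach was at most 100 bp at 749 borders (20.4%) and at most 200 bp at 1180 (32.1%). A broad shoulder followed, with between 4.35 and 4.87% of borders in each 100 bp bin from 501 to 900 bp. The reach was at least 1000 bp at 1073 borders (29.2%) and at least 5000 bp at 39 (1.06%). On the other side of the border the H2AK121ub peak had a median of 1179 bp under H3K27me3. Peak ends carry no stated precision, so the shortest overhangs cannot be told apart from no overhang.

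The reach differed with the gene at the border. At gene starts it was 224 bp in the median (quartiles 67.5 and 883 bp, n = 692) when the gene was inward and 671 bp (456 and 974 bp, n = 218) when it was outward. At most 200 bp of reach was seen at 334 inward starts (48.3%) and at 32 outward starts (14.7%). At outward starts the bins from 501 to 800 bp held between 10.1 and 12.4% of borders each. The median reach was 662 bp at gene ends, 489 bp in gene bodies, 830 bp in the upstream window and 470 bp in intergenic DNA. Reach is part of what the rule used, so these values are a description and were not tested.

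**Figure D3:**
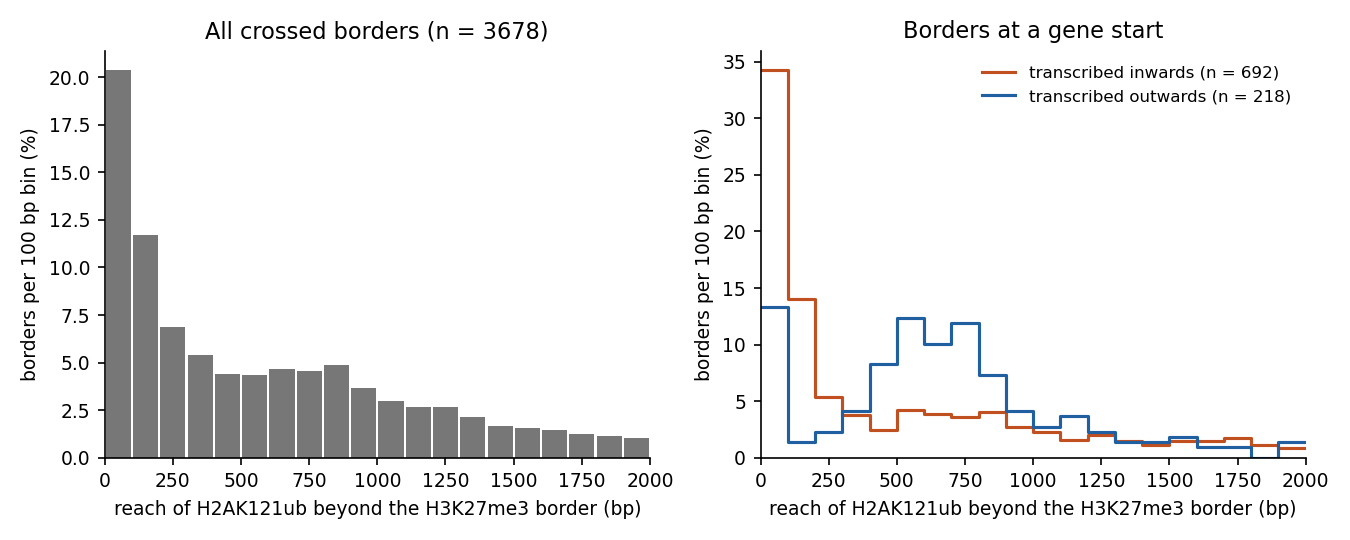
Percent of borders (y axis) by reach of H2AK121ub beyond the H3K27me3 border in bp, in 100 bp bins up to 2000 bp (x axis), for all 3678 borders at which H2AK121ub runs to its own end (left) and for those at a gene start by direction of the gene (right). The first bin holds 20.4% of all borders, 34.2% of those at inward starts and 13.3% of those at outward starts.

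The outer end of H2AK121ub was classed in the same way. It lay at a gene start in 772 of 3678 cases (21.0%), with the gene transcribed into the H2AK121ub peak in 653 of them (84.6%, 81.9 to 87.0%), beside 10.2% of genome positions, and in a gene body in 1323 (36.0%), beside 42.4%. The same direction was seen at 93.0% of the ends of free peaks at a gene start and at 94.6% of those of nested peaks. A TSS was present in the stretch outside H3K27me3 at 1319 borders (35.9%). At 506 borders (13.8%) that stretch met the body of a gene that had no H3K27me3 on its body or upstream window, and 588 such genes were met in all. As whole peaks, 2015 crossing peaks (68.7%, 67.0 to 70.3%) held a TSS, beside 41.8% of nested and 30.2% of free peaks, which are shorter. They met at least 2 protein coding genes in 1144 cases (39.0%) and none in 299 (10.2%).

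The 5 longest reaches each ran over several kb outside H3K27me3. The longest, 9866 bp, ran over AT1G75580, which encodes a SAUR-like auxin-responsive protein, from an H3K27me3 peak that began inside the neighbouring SAUR-like gene AT1G75590 (H2AK121ub peak chr1:28373741-28387823). A reach of 9377 bp (chr3:3274358-3286289) started in the haemoglobin gene HB2 and covered LGO, a cyclin-dependent kinase inhibitor that sets the fate of giant cells. A reach of 9181 bp (chr1:24028556-24038861) began in MGL, a methionine gamma-lyase gene, and passed over BDG1, needed for the cuticle, AT1G64680, annotated as beta-carotene isomerase D27, and part of BLT, a gene of trichome branching. A reach of 9088 bp (chr5:23298736-23308388) held XTH12, XTH13, XTH25 and most of TCH4, all of the xyloglucan endotransglucosylase/hydrolase family of cell wall enzymes, and none of these met H3K27me3. The last, 9010 bp (chr5:4181047-4193150), started past the senescence gene SAG29 and held no protein coding gene beyond it. In these peaks between 70.1 and 94.1% of the length was outside H3K27me3.

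Bridging peaks joined neighbouring H3K27me3 peaks across short gaps. Of the 129, 124 bridged 2 H3K27me3 peaks, 4 bridged 3 and 1 bridged 4. The 135 gaps bridged had a median of 1259 bp (quartiles 1031 and 1978 bp, range 46 to 11081 bp), against 13628 bp for the 4227 gaps that were not bridged, as must follow from the length of a peak. Bridged were 29 of 136 gaps of 501 to 1000 bp (21.3%, 15.3 to 28.9%), 70 of 345 of 1001 to 2000 bp (20.3%, 16.4 to 24.8%), 22 of 223 of 2001 to 3000 bp (9.87%, 6.61 to 14.5%) and 10 of 403 of 3001 to 5000 bp (2.48%, 1.35 to 4.51%). Only 8 gaps in the H3K27me3 list were 500 bp or shorter, and 2 of these were bridged.

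Genes in the bridged gaps were compared with those in gaps of like length. Of the 92 bridged gaps of 1001 to 3000 bp, 46.7% held a TSS, close to the 45.2% of all 568 gaps of that length, in which the bridged ones are included. Among gaps of 501 to 1000 bp the shares were 37.9% (11 of 29) and 20.6% (28 of 136). A gap of 1001 to 3000 bp lay within the body of 1 gene in 20.7% of the bridged (19 of 92) and in 8.63% of all (49 of 568), and the order was reversed from 501 to 1000 bp, with 10.3% of the bridged (3 of 29) and 15.4% of all (21 of 136). Over all lengths, 24 of the 135 bridged gaps (17.8%) lay within 1 gene and 20 held a whole gene. GA2OX6, a gibberellin 2-oxidase gene, is one of the former: a gap of 1528 bp inside the gene parted an H3K27me3 peak of 853 bp over its start from one of 1419 bp over its end, and an H2AK121ub peak covered 821 bp of the first and all of the second (chr1:486823-490608).

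The peak that bridged the most H3K27me3 peaks ran for 11940 bp over UGT85A7, UGT85A2, UGT85A5 and UGT85A3, a tandem array of UDP-glucosyl transferase genes (chr1:7890526-7902465). It joined 4 H3K27me3 peaks across gaps of 1109, 1122 and 2233 bp. Members of such arrays resemble each other, and how reads that fit several copies were treated is not given in the sources used here, so breaks of H3K27me3 inside the array are uncertain. The longest of all crossing peaks, 20206 bp (chr4:11621277-11641482), bridged 3 H3K27me3 peaks of 910, 1721 and 724 bp and lay 83.4% outside them. It also spanned the longest gap, 11081 bp, which held the whole of AT4G21910, a MATE efflux gene, and the start of another, AT4G21903. A peak of 16419 bp (chr1:4076334-4092752) ran from BAG5, a co-chaperone gene outside H3K27me3, to the extensin-like gene ELP under it, across gaps of 2893 and 811 bp. The other peaks that bridged 3 lay on C1 domain genes (AT3G11370, AT3G11385 and AT3G11390, chr3:3561181-3571859) and on AT4G12380, the F-box gene AT4G12382 and the first 900 bp of PME1, a pectin methylesterase inhibitor gene (chr4:7332453-7337229).

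**Figure D4:**
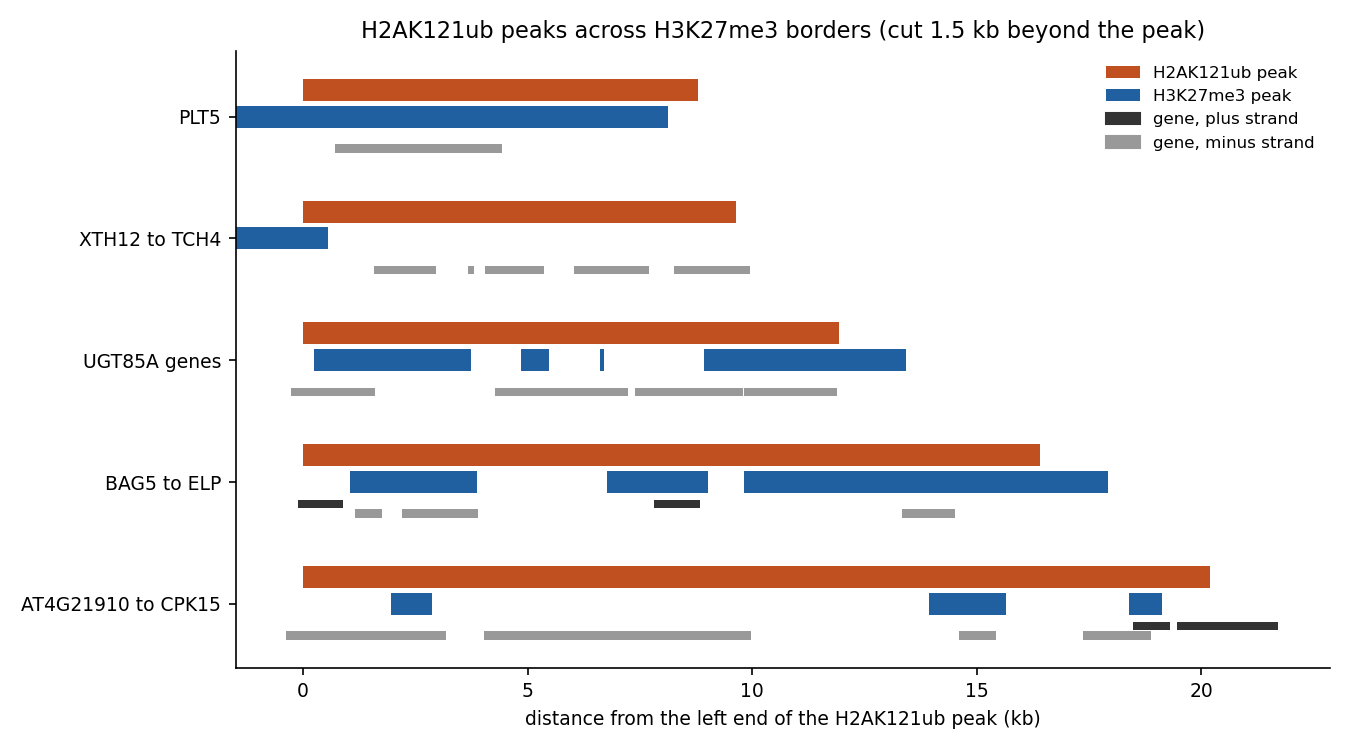
H2AK121ub peaks, the H3K27me3 peaks they meet and the protein coding genes under them for 5 named peaks, by distance in kb from the left end of the H2AK121ub peak (x axis). H3K27me3 peaks and genes are drawn up to 1.5 kb beyond the H2AK121ub peak. PLT5 lies wholly under both marks, the 4 xyloglucan enzyme genes lie outside H3K27me3, and the lower 3 peaks bridge 4, 3 and 3 H3K27me3 peaks.

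The next longest gaps and the longest enclosed domains were named by the same rules. The gap of 6334 bp (chr1:6870243-6876576) held the SAUR-like gene AT1G19840, and the gap of 4515 bp (chr4:14217057-14221571) held AT4G28790, a basic helix-loop-helix gene. The peak on the latter (chr4:14214953-14229398) ran on for 6811 bp past its last H3K27me3 peak, over further genes of that family. The longest H3K27me3 peak enveloped was 9794 bp, over 4 SAUR-like genes from AT4G34770 to AT4G34800 (H2AK121ub peak chr4:16588757-16599993), and H2AK121ub passed its ends by 222 and 1221 bp and so covered a further gene of the family, AT4G34810. The others were of 7624 bp, over AT5G18460 (chr5:6118429-6126405), and of 7431 bp, with no protein coding gene (chr5:21621635-21630433). A peak of 17884 bp (chr4:17844373-17862256) lay on the cinnamyl alcohol dehydrogenase genes CAD6, ELI3-1 and ELI3-2 under H3K27me3. It ended 3028 bp beyond a border inside DOF4.7, a DOF transcription factor gene, 97 bp before the end of that gene.

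Among all protein coding genes, 4646 of 27444 (16.9%) had a crossing peak on the body or the 750 bp upstream, and 3055 (11.1%) had a crossed border there. Of the 8009 genes with H3K27me3 these shares were 48.1 and 38.1%. The lists differ in how many genes carry H3K27me3, which a crossed border requires, so that number is given with each. Gibberellin oxidases, which make and break down gibberellin, had a crossing peak on 7 of 16 genes and a crossed border in 6, with H3K27me3 on 12. Auxin synthesis and transport genes had them on 8 and 5 of 22, with H3K27me3 on 17, and leaf polarity genes on 6 and 3 of 15, with H3K27me3 on 12. The boundary NAC genes CUC1, CUC2 and CUC3 had them on 3 and 2 of 3, all with H3K27me3. Flowering time genes had them on 4 and 2 of 16 (10 with H3K27me3), seed regulators on 2 and 2 of 6 (5), meristem homeobox genes on 4 and 1 of 20 (15), and PLETHORA genes on 2 and 0 of 7 (6). All 13 floral MADS-box genes carried H3K27me3, and 1 of them had a crossing peak and none a crossed border. The 16 Polycomb genes matched, 5 of them with H3K27me3, and the 19 genes annotated as 40S or 60S ribosomal proteins, 6 of them with H3K27me3, had no crossing peak. With so few genes a list, these counts are given without a test. Of the genes the study examined singly, PLT5 had a crossing peak and SOC1 and AG had none. SOC1 had an H2AK121ub peak that crossed no border, whereas AG carried H3K27me3 but had no H2AK121ub peak in the list.

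The 21 genes of these lists with a crossed border held 26 such borders, and the side free of H3K27me3 was the one towards the gene end at 18 of them, where all crossed borders in gene bodies had a share of 65.9%. CUC1, which sets organ boundaries, had an H3K27me3 peak of only 305 bp near its 3′ end (borders 1371 and 1675 bp from the TSS) within an H2AK121ub peak of 3500 bp, which reached 2615 bp upstream and 580 bp downstream of it. In CUC3 the border lay 875 bp from the TSS and H2AK121ub ran 1148 bp towards the gene end. The second border of MAF4 lay 2784 bp from the TSS, with a reach of 1158 bp towards the gene end from a separate H2AK121ub peak. KNAT6, a KNOX homeobox gene of the meristem, had its border 5362 bp from the TSS, at the gene end, and a reach of 645 bp.

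Reaches in the seed and leaf polarity genes differed widely. LEC1, a regulator of embryo development, had a reach of 442 bp at its gene end, whereas in DOG1, which sets seed dormancy, it was 13 bp, within the range that the peak ends cannot resolve. CRC, a YABBY gene of carpel development, had 106 bp. ATHB-8, another class III homeodomain leucine zipper gene, faced a bridged gap of 982 bp. In ATHB-15 the H3K27me3 peak of 899 bp over the start of the gene was enveloped, with 3832 bp of H2AK121ub on the upstream side and 39 bp on the side of the gene end.

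Hormone genes of these lists had a crossed border in the gene body or, in GA3OX3, at the gene end. YUC8, YUC6 and YUC9, flavin monooxygenases of auxin synthesis like YUC3, had reaches of 531, 276 and 132 bp, all towards the gene end. GA3OX3 and GA3OX2, which make active gibberellin, had reaches of 1355 and 937 bp in the same direction. GA20OX2, which acts a step earlier, was the reverse: H3K27me3 covered its 3′ part up to 1108 bp from the TSS and H2AK121ub ran 1021 bp towards the start.

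Sequence, which the rule did not use, differed in composition across the border. The mean GC content was 39.9% in the 50 bp bin that ends 100 bp inside crossed borders and 33.6% in the bin that starts 150 bp outside, a step of the same direction as at uncrossed ends but at a higher level, where the same bins had 33.9% and 29.7%. The nuclear genome as a whole had 36.0%. Over whole stretches the parts of crossing peaks under H3K27me3 (36.6%) and outside it (36.4%) differed little, and the step was not seen at that scale. Base composition differs between coding and intergenic DNA and can alter read recovery in ChIP-seq, and its part in where the peak ends were placed was not tested.

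**Figure D5:**
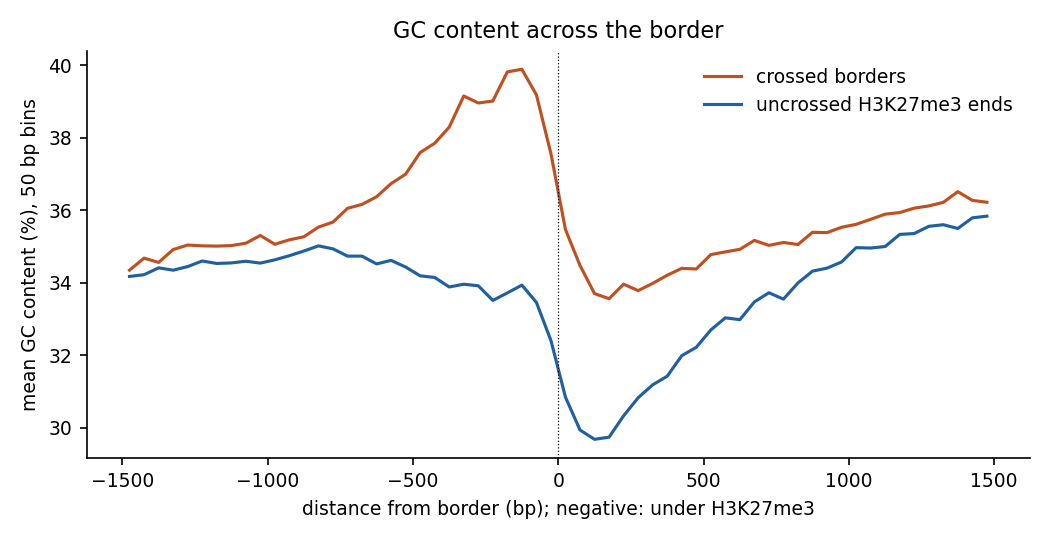
Mean GC content in 50 bp bins (y axis, percent) by distance from the border in bp (x axis, negative under H3K27me3) over 3948 crossed borders and 4786 uncrossed H3K27me3 ends. Both curves drop across the border, from 39.9 to 33.6% and from 33.9 to 29.7% in the bins named in the text.

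Short motifs were counted in the 300 bases centred on each border, on both strands, beside uncrossed ends and windows of that length placed every 1000 bp along the genome. The G-box CACGTG, a core bound by basic helix-loop-helix and bZIP factors, was present at 284 of 3948 crossed borders (7.19%, 6.43 to 8.04%), at 3.13% (2.68 to 3.67%) of uncrossed ends and in 3.23% of genome windows. It was higher at crossed than at uncrossed borders in gene starts (9.14 and 5.27%), gene bodies (7.64 and 1.53%), gene ends (4.98 and 2.24%), upstream windows (7.34 and 2.45%) and intergenic DNA (5.57 and 3.43%), and the intervals overlapped in this last class, as they did in other annotated genes (6.19 and 5.03%). The share did not peak at the border, since in steps of 150 bp from 450 bp inside to 450 bp outside it stayed between 3.17 and 4.38%, against 1.48 to 2.05% at uncrossed ends. Per kb, G-boxes numbered 0.249 in crossing, 0.231 in nested and 0.193 in free H2AK121ub peaks and 0.122 in the nuclear genome, so crossing peaks shared this with other H2AK121ub peaks.

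The other motifs were counted in the same windows. GAGAGA was present at 27.7% (26.3 to 29.1%) of crossed borders, 20.5% (19.4 to 21.6%) of uncrossed ends and 24.5% of genome windows. Intervals for crossed and uncrossed borders were apart in gene starts (39.2 and 30.8%) and gene bodies (28.9 and 21.3%). They overlapped in gene ends (20.4 and 20.8%), upstream windows (18.5 and 17.6%), intergenic DNA (19.6 and 15.7%) and other annotated genes (33.0 and 24.5%). Per kb, GAGAGA numbered 1.59 in crossing, 1.55 in nested and 2.31 in free peaks and 1.38 in the nuclear genome, with overlapping matches counted each. The telobox AAACCCTA was present at 4.20% (3.62 to 4.88%) and 4.72% (4.16 to 5.36%), with overlapping intervals, and in 3.93% of genome windows. TATAAA was rarer at crossed borders (39.2%, 37.7 to 40.7%) than at uncrossed ends (50.6%, 49.1 to 52.0%), which also had the lower GC content, and was present in 35.0% of genome windows. In the 5 sequences printed above a script found 1 match, GAGAGA in YUC3 on the opposite strand. A match describes letters only and is no evidence that a factor binds.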

How the data were processed

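The deposited files were 2 lists of consensus peaks, 1 per mark, with chromosome, start and end in bp and no other value. The authors state that reads were aligned to TAIR10 by Bowtie, that MACS2 with its defaults gave the peaks of every wild-type library, that replicates were intersected, and that data of an earlier age were combined with them by bedtools. Versions and the options of bedtools are not given in the sources used here. Positions were set against the RefSeq copy TAIR10.1, whose 5 nuclear chromosomes contain every peak, and are given from 1. Genes were the 27444 protein coding genes of its annotation, with the annotated outer end taken as TSS. Symbols were matched by the RefSeq gene table, and AIL1, BMI1B and BMI1C were not matched.

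Border classes, reach, gaps, GC content and motifs were computed in Python 3.11.15 with numpy 2.4.6 and scipy 1.17.1, and the functions were tested on simulated peaks. No test across samples could be made, because each list is a consensus of replicates. Shares have 95% Wilson intervals. Genome values used positions every 100 bp. Peaks were named by extremes (longest reach, most peaks bridged, longest gap, longest peak, longest H3K27me3 peak enveloped), by the genes the study examined and, per gene list, by up to 4 genes in order of reach. Members and lists were chosen with earlier results of these data known.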

Additional observations from a re-analysis of the deposited data

How the results depend on the processing

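Of 74 values recomputed for 8 results under the alternatives, 64 stayed within the main interval or, for counts, within 1.5 times the main count. With at least 100 bp required under and outside H3K27me3, the share of crossing peaks was 15.1% and the median reach 672 bp. With gene starts and ends taken within 100 bp of the border, 11.0% of crossed borders lay at a gene start, 6.36% at a gene end, and 13.6% of gene-start borders had an outward gene. Within 500 bp these were 37.4, 26.98 and 32.7%. With all annotated nuclear genes, 26.8% lay at a gene start and 18.4% at a gene end. Uncrossed ends moved alike, to 7.61, 26.1 and 19.6% at a gene start, below the crossed borders each time. Peaks of at least 200 bp, joining of H3K27me3 peaks less than or exactly 500 bp apart, chromosome arms only and each chromosome left out moved none of the 8 results beyond those limits, as far as they were run: the median gap was recomputed under the first pair of these alone. No paired analysis was possible because replicates had been intersected into 1 list per mark, with no value for each. Leaving out a replicate and a stricter score threshold were not run, since the lists hold neither.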
